A study of Drosophila melanogaster with 288 samples.

Results

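The nuclear genes of oxidative phosphorylation were followed through fly embryogenesis. They were taken from the count table by their Ensembl symbol, as protein-coding genes on nuclear chromosomes whose symbol starts with ND-, COX, UQCR or ATPsyn, or with Sdh and a letter from A to D. The choice used symbols and no measured value, although it was made with earlier results of these data known. The symbols gave 87 of the 17698 genes in the table: 40 of complex I, 7 of complex II, 9 of complex III, 16 of complex IV and 15 of complex V. They lie on X (13 genes), 2L (16), 2R (17), 3L (20), 3R (19) and 4 (2). A mean above 1 cpm (counts scaled to an equal total over protein-coding genes in each sample) was reached by 62 of them, and by 9606 genes in all. The 62 tested genes were 32 of complex I, 4 of complex II, 5 of complex III, 9 of complex IV and 12 of complex V. The other 25, described at the end, were mostly paralogs with an L at the end of the symbol.

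Oxidative phosphorylation makes ATP in the inner mitochondrial membrane. Complexes I and II pass electrons to ubiquinone, complex III passes them to cytochrome c, complex IV passes them to oxygen, and complex V, the ATP synthase, uses the proton gradient so built. Most subunits are encoded in the nucleus, a few are encoded by mitochondrial DNA, and all subunits of complex II are nuclear. The fly egg is supplied by the mother with both mitochondria and mRNA, and larval muscle forms in the second part of embryogenesis.

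The data were 3′-end transcriptomes (BRB-seq, a method that barcodes and pools the RNA of many samples before sequencing) of 288 single whole embryos of the strain W1118, all untreated. They were collected at 8 stages labelled by hours of age: E1 (2-3 h), E2 (5-6 h), E3 (8-9 h), E4 (11-12 h), E5 (14-15 h), E6 (17-18 h), E7 (20-21 h) and E8 (23-24 h). The limits on depth and gene number of the study's methods were passed by 250 samples, with 323298 to 24787342 counts each. These samples form 2 groups in a multidimensional scaling. The 153 that are ordered by stage are called developing embryos here (11, 24, 27, 14, 21, 18, 24 and 14 from E1 to E8). A small cluster of 97 mixes all ages (25, 10, 9, 12, 5, 4, 9 and 23). The study took its small cluster to be unfertilized eggs, from correlation with unfertilized egg profiles and from meiosis-related genes. Its depth limit was set on uniquely mapped reads and here on protein-coding counts, and it kept fewer samples, with a smaller cluster. The cluster was delimited here without the 87 genes and the other listed genes, and was defined from expression, so developing embryos and cluster are set side by side with no test.

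Several developing embryos went against their stage label. By their profile over all genes, 34 of 153 were more alike another stage than their own, with 5, 2, 2, 0, 6, 2, 10 and 7 embryos from E1 to E8. The embryo E1 replicate 14 was most alike E6 and had a summed level of 58860 cpm of 10 muscle genes. Replicates 24 and 25 of E2 were most alike E5, with 37001 and 33179 cpm of the muscle genes. Replicate 15 of E3, replicates 14, 22, 25 and 37 of E7 and replicates 20 and 43 of E8 were most alike E1. Results were therefore also computed without these 34 embryos. The median total of developing embryos was 1850355 counts at E8, the lowest, and 9612291 at E2, the highest, and E8 had none from the libraries E1_1 and E1_2.

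In developing embryos the members made up the smallest share of the counts at E3 and a larger one from E5 on. Their summed level had a median of 42254 cpm at E1, and then 36656, 31066, 39530, 50073, 58733, 62048 and 53416 cpm from E2 to E8. At E3 the 27 embryos lay between 9476.9 and 42556 cpm and at E6 the 18 embryos between 45582 and 74415 cpm, so that these stages did not overlap. The lowest E3 embryo was replicate 15, named above as most alike E1. At E7 the range was wide, from 8016.5 to 79530 cpm, and the 4 lowest embryos were replicates 14, 22, 25 and 37. With totals scaled by TMM, a method that lines up the bulk of genes between samples, the median was 20663 cpm at E3, 24785 at E4 and 40464 at E5, so that E3 stayed lowest but E5 lay under the 48192 cpm of E1.

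In the small cluster the summed level ran the other way. Its median was 40421 cpm at E1, and then 38263, 32927, 22177, 15925, 9587.8, 10137 and 10084 cpm from E2 to E8. The 25 E1 samples lay between 30244 and 51179 cpm and the 23 E8 samples between 4737 and 16649 cpm, without overlap. With TMM-scaled totals the medians were 49244 cpm at E1, 36105 at E5 and 10137 at E8. At E1 the cluster and the developing embryos covered much the same range, while at E6 all 4 cluster samples lay below all 18 developing embryos. A cpm value is a share of the counts of a whole sample, and in such bulk samples fewer cells of a type and less RNA per cell cannot be told apart.

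**Figure D1:**
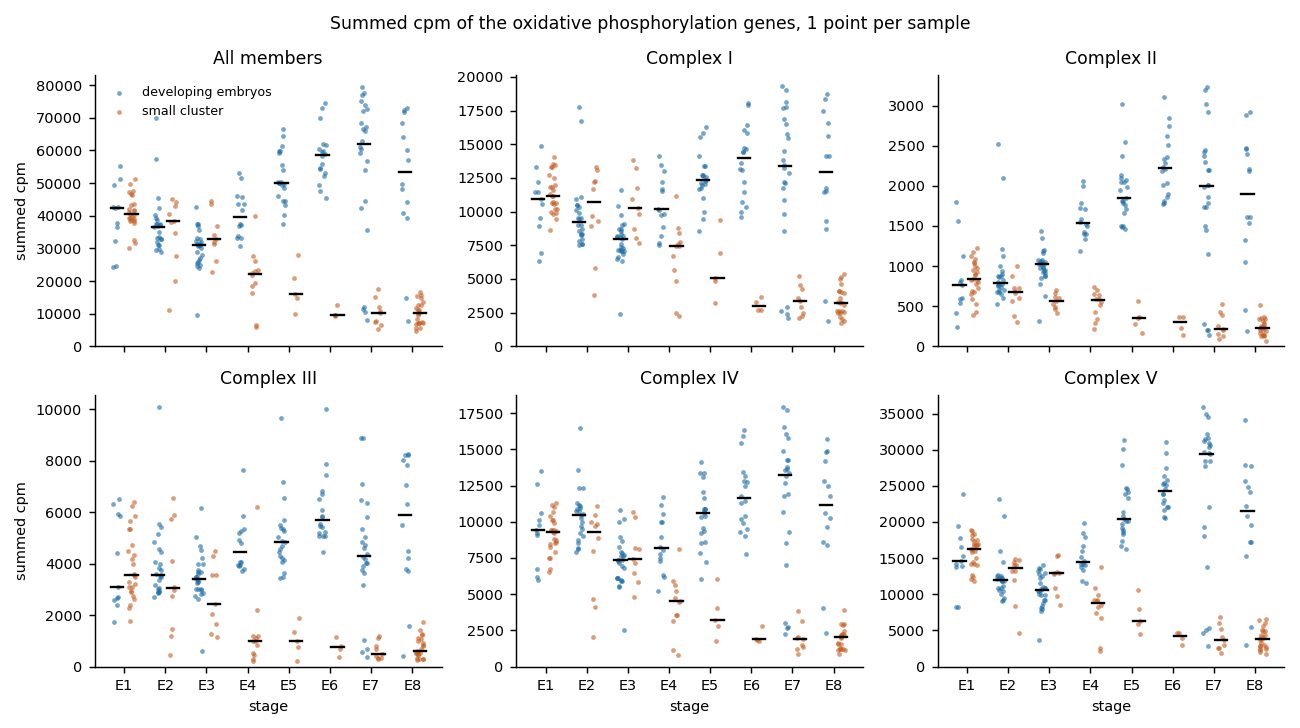
Summed level (cpm) of all members and of each complex by stage, 1 point per sample, developing embryos in blue and the small cluster in orange, with a black bar at each median. From E1 to E6 the median over all members went from 42254 to 58733 cpm in developing embryos and from 40421 to 9587.8 cpm in the cluster.

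For successive stages the counts were fitted with edgeR's quasi-likelihood method, with TMM scaling and the library as a covariate. A gene was called at a Benjamini-Hochberg adjusted p under 0.05 over the 9606 genes and a change of at least 1.5-fold. From E1 to E2, 1 member was called higher (UQCR-6.4) and 4 lower, where 8.03% of all genes were called, 1.53% higher and 6.5% lower. From E2 to E3, 6 members were higher and 39 lower (36.7% of all genes called, 13.7% higher and 23% lower). From E3 to E4, 7 were higher and 0 lower (24.3% called, 15.8% higher and 8.43% lower), and from E4 to E5, 30 were higher and 0 lower (32.3% called, 21.5% higher). The E2 to E3 step was thus mostly lower for the members, and the E4 to E5 step was higher in every member called. The 30 calls from E4 to E5 fell to 12 without library E1_1 and to 12 without E1_2, to 10 without the 34 embryos, to 3 higher and 1 lower with limma-voom, to 2 with library size only and to 0 at a 2-fold limit, and they were 47 with DESeq2. Without library E3 there were 15 higher and 1 lower. These alternative counts have no share of all genes beside them. The members' median change from E4 to E5 minus that of all genes lay between 0.374 and 0.652 over the settings.

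Later steps called few members. From E5 to E6 edgeR called 0 of 62 (4.74% of all genes, 1.75% higher and 2.99% lower), with 3 higher and 0 lower at an unadjusted p under 0.05, and DESeq2 and limma-voom also called 0. From E6 to E7, 0 were higher and 7 lower (21.3% called, 15.1% higher and 6.18% lower). The libraries differed for this step in the mean log2 level of the 62 members. At E7, 51 were higher and 11 lower in library E1_2, 22 and 40 in library E1_1, and 3 and 59 in library E2. From E7 to E8 edgeR called 0 (2.88%, with 1.25% higher and 1.63% lower), with 0 higher and 6 lower at an unadjusted p under 0.05, and DESeq2 and limma-voom also called 0. Without the 34 embryos more alike another stage, 22 members were called lower from E7 to E8, and 33 lower and 3 higher from E1 to E2. These 34 embryos were picked by their expression, so a change in calls without them may follow in part from that choice. The shares of all genes above belong to the fit with all developing embryos. The counts without the 34 are therefore not read as a result about the members.

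The stage of the members' lowest summed level was set against a late stage as E6 against E3, a comparison added after the data were seen. At E6, 55 of 62 members were higher and 1 lower, where 32.7% of all genes were higher and 34.7% lower (67.3% called). E3 was chosen for the members' own low level, so an excess of higher members is in part set by that choice. The changes and adjusted p-values given below for single members in this comparison carry the same limit. The median change of the members was 1.17 on the log2 scale (2.25-fold) and that of all genes -0.21. Across the alternative settings the members' median minus the all-gene median lay between 0.871 and 1.5, and the calls went from 33 higher and 2 lower, with the small cluster's samples included, to 60 higher and 0 lower with DESeq2. In the 3 libraries with at least 2 embryos of each stage, 57 to 60 of the 62 members had a higher mean log2 level at E6. Muscle genes moved with this comparison: 10 of 10 were called higher, and their summed level was 645 to 5880 cpm at E3 and 20442 to 81452 cpm at E6, with 0 of the 10 at a median of 0 at either stage. Of the neuron markers 4 of 5 were higher and 1 lower (elav), as with Syt1 at 10.8-fold, with a summed level of 24.4 to 906 cpm at E3 and 25.5 to 473 cpm at E6. Of the gut markers 5 of 5 were higher, as with thetaTry at 78.4-fold, with 17.6 to 237 cpm and 212 to 1057 cpm. The part of muscle, neurons and gut in the members' change was not tested.

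Against E1 the outcome depended on scaling. At E6, 20 members were called higher and 9 lower with TMM (63% of all genes called, 29.1% higher and 33.9% lower). With DESeq2 size factors 45 were higher and 0 lower, and without the 34 embryos 16 were higher and 28 lower. The median of all genes was -0.07 on the log2 scale with TMM and 0.59 with DESeq2 size factors, and the members' median minus it lay between -0.349 and 0.466 over all settings. For E8 against E1 the counts were 17 higher and 10 lower (53.8% of all genes called, 26.2% higher and 27.5% lower), 37 higher and 0 lower with DESeq2 size factors, and 13 higher and 33 lower without the 34 embryos. Leaving out library E2 gave 4 higher and 3 lower for E8 against E1. For this comparison the members' median minus that of all genes lay between -1.247 and 0.333 over all settings. The shares of all genes given here belong to the main fit with TMM, and the other counts have no such share beside them. The median change over the 62 genes from E1 to a late stage thus had no settled sign.

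Complex I, the NADH dehydrogenase, had 29 of 32 tested genes higher at E6 than at E3 and 0 lower, with a median change of 1.15 on the log2 scale. Its summed level had a median of 10926 cpm at E1, 7989 at E3, 14005 at E6 and 12955 at E8. ND-75, the counterpart of the iron-sulfur subunit NDUFS1 of mammals, had the largest change of the complex: at E3 the embryos ran from 7.09 to 120 cpm with a median of 39.6, and at E6 from 27.9 to 259 with a median of 147. The E6 embryos were mostly high but overlapped with E3, and the change was 1.91 ± 0.35 (log2, SE; edgeR adjusted p = 8.63e-07).

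Not every gene of complex I followed. ND-AGGG, an accessory subunit of the membrane arm in mammals (NDUFB2), ran from 15.8 to 229 cpm at E3 (median 114.7) and from 41 to 212 cpm at E6 (median 121). The 2 stages covered the same range, and the change of 0.25 ± 0.20 was not called (edgeR adjusted p = 0.266). ND-MLRQ, placed with complex I by its symbol though its mammalian counterpart NDUFA4 was later assigned to complex IV, changed by 0.52 ± 0.18 (edgeR adjusted p = 0.00782), which misses the 1.5-fold limit. ND-SGDH, another membrane arm subunit, was higher by 0.98 ± 0.16 (edgeR adjusted p = 4.12e-08), with medians of 503 and 838 cpm.

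Complex II, succinate dehydrogenase, is at once an enzyme of the citric acid cycle. All 4 of its tested genes were higher at E6 than at E3, with a median change of 1.57, and its summed level had medians of 758 cpm at E1, 1029 at E3, 2226 at E6 and 1895 at E8. SdhA, the flavoprotein that oxidises succinate, had 19.2 to 376 cpm at E3 (median 107.5) and 65.7 to 439 cpm at E6 (median 245). SdhD, a membrane anchor, had 49 to 373 cpm at E3 (median 206) and 382 to 799 cpm at E6 (median 516). The stages overlapped for SdhA and did not overlap for SdhD. The changes were 2.83-fold for SdhA (SE 0.26 on the log2 scale) and 1.64 ± 0.21 for SdhD (edgeR adjusted p = 2.11e-07 and 2.42e-12), 1.87 ± 0.28 for SdhB, the iron-sulfur subunit, and 1.41 ± 0.20 for SdhC, the other anchor.

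Complex III, the cytochrome bc1 complex, had 4 of 5 tested genes higher at E6 than at E3. UQCR-C2, a core protein, had 34.2 to 620 cpm at E3 (median 280) and 209 to 1261 cpm at E6 (median 974). Its partner core protein UQCR-C1 had 150.2 to 960 cpm (median 426) and 591 to 1711 cpm (median 1386). Both overlapped between stages, with changes of 2.19 ± 0.31 and 2.00 ± 0.23 (edgeR adjusted p = 3.28e-10 and 4.25e-14). UQCR-11 was not called, at 0.32 ± 0.19 (edgeR adjusted p = 0.137), with a median of 1194 cpm at E3 and 1221 at E6. UQCR-Q was higher by 0.96 ± 0.20. The value of UQCR-6.4, higher by 0.65 ± 0.21, is uncertain because 40.5% of its exon bases lie in exons of the gene POSH.

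Complex IV, cytochrome c oxidase, had 8 of 9 tested genes higher at E6 than at E3, and none of these 8 was called from E1 to E6 except COX7A. Its summed level had medians of 9400 cpm at E1, 7348 at E3, 11621 at E6 and 11182 at E8. COX5B, a subunit on the matrix side, had 544.5 to 2086 cpm at E3 (median 1515) and 1536 to 4435 cpm at E6 (median 2547). The ranges overlapped between 1536 and 2086 cpm, and the change was 1.11 ± 0.18 (edgeR adjusted p = 2.73e-08). COX4 was higher by 1.51 ± 0.17 and COX5A by 0.87 ± 0.15. The only tested member lower at E6 was COX4L, the paralog of COX4, at -1.77 ± 0.71 (edgeR adjusted p = 0.0221), whose embryos had 0 to 9.40 cpm at E3 (median 3.65) and 0 to 4.54 cpm at E6 (median 0.118).

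Complex V, the ATP synthase, had 10 of 12 tested genes higher at E6 than at E3, with a median change of 1.46. Its summed level had medians of 14548 cpm at E1, 10587 at E3 and 24243, 29471 and 21539 cpm from E6 to E8. The E3 embryos ran from 3686 to 14107 cpm and the E6 embryos from 20595 to 31100 cpm, without overlap. ATPsynC, which forms the rotating ring in the membrane, had 303 to 3361 cpm at E3 (median 2035) and 4904 to 8572 cpm at E6 (median 6064). ATPsynbeta, the catalytic subunit, had 223 to 2628 cpm at E3 (median 1549) and 2659 to 5955 cpm at E6 (median 3851). Neither gene overlapped between these stages, and the changes were 2.01 ± 0.19 and 1.73 ± 0.18 (edgeR adjusted p = 6.13e-18 and 6.11e-16). ATPsyngamma, the central stalk, was higher by 1.96 ± 0.21.

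The smallest changes in complex V were those of ATPsynG, a membrane subunit, at 0.55 ± 0.18 (edgeR adjusted p = 0.00565, under the 1.5-fold limit), and ATPsyndelta, a central stalk subunit, at 0.72 ± 0.19 (edgeR adjusted p = 0.000561). ATPsyndelta shares 35.6% of its exon bases with CG2962, so its counts are uncertain. With TMM both were lower at E6 than at E1, by 2.04-fold and 2.01-fold (SE 0.22 and 0.24 on the log2 scale, edgeR adjusted p = 3.47e-05 and 0.000125), and neither was called lower with DESeq2 size factors. ATPsynepsilonL, a paralog of the epsilon subunit, had a median of 7.68 cpm at E3 and 1.89 cpm at E6 and was not called (-1.15 ± 0.61, edgeR adjusted p = 0.0826).

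**Figure D2:**
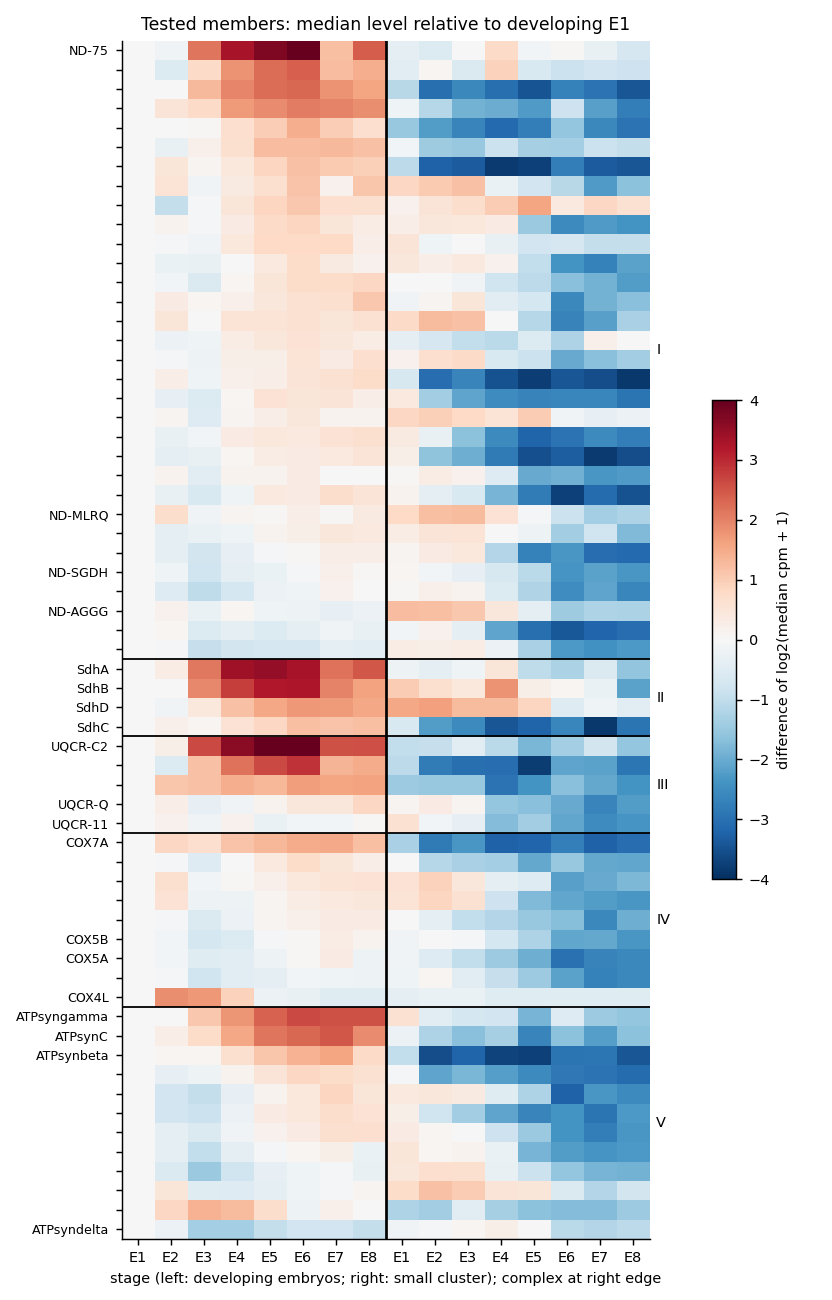
Median level of each of the 62 tested members by stage, as the difference of log2(median cpm + 1) from developing embryos at E1, with developing embryos on the left, the small cluster on the right and genes grouped by complex; genes are labelled where they have the highest mean or the extreme changes of their complex, or belong to complex II. Red is higher and blue lower than developing E1; ND-75, SdhA and UQCR-C2 are among the deepest red at E4 to E6, and most genes are blue from E6 on in the cluster.

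The same 6 genes were called at E3 and again at E7, in opposite directions. ND-75, ND-39, SdhA, SdhB, UQCR-C1 and UQCR-C2 were the only members higher at E3 than at E2, where 39 others were lower. They are 9.68% of the tested members, under the 13.7% of all genes called higher. All 6 were lower at E7 than at E6, where they made up 6 of the 7 members called. At this step 11.3% of the members and 6.18% of all genes were lower. How many of all genes higher at E3 were lower at E7 was not counted. The seventh was ND-51, the flavin-binding subunit of complex I. ND-39 corresponds to the accessory subunit NDUFA9 of mammals and, like ND-51 in this comparison, was singled out after its values were seen. The 2 comparisons share no embryos. They do share a fit, with the same library terms and the same estimate of spread, so they are not independent. These genes are 2 of complex I, 2 of complex II and 2 of complex III, with 0 of complexes IV and V.

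ND-75 had 2.04 to 34.7 cpm at E2 (median 7.48) and 7.09 to 120 cpm at E3 (median 39.6), then 27.9 to 259 cpm at E6 (median 147) and 0 to 273 cpm at E7 (median 20.2). The E3 embryos were mostly above E2 and the E7 embryos mostly below E6, each with overlap. Its change was 1.89 ± 0.35 at E3 (edgeR adjusted p = 5.07e-06) and -1.72 ± 0.36 at E7 (edgeR adjusted p = 0.000187).

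SdhA had 2.85 to 106.5 cpm at E2 (median 29.8) and, at E7, 1.58 to 249.5 cpm (median 112), against medians of 107.5 cpm at E3 and 245 at E6. Its changes were 1.03 ± 0.26 and -0.96 ± 0.27 (edgeR adjusted p = 0.000567 and 0.00484). UQCR-C2 had 7.98 to 276 cpm at E2 (median 52.9) and 4.15 to 709 cpm at E7 (median 264), against medians of 280 cpm at E3 and 974 at E6. The high E2 values and the low E7 values overlap with the neighbouring stage in both genes. The changes of UQCR-C2 were 1.34 ± 0.30 and -1.50 ± 0.32 (edgeR adjusted p = 0.000125 and 0.000225).

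For the other 3 genes the changes at E3 were 1.03 ± 0.26 (SdhB), 0.81 ± 0.22 (UQCR-C1) and 0.80 ± 0.23 (ND-39), and at E7 they were -1.34 ± 0.29, -1.28 ± 0.24 and -0.90 ± 0.25. Every one of the 6 had a higher mean log2 level at E3 in 4 of 4 libraries and a lower one at E7 in 3 of 3. Over 18 alternative settings, ND-75 and UQCR-C2 kept both calls and the sign of all 5 genes followed was kept, while the E3 call was lost for SdhB in 1 setting and for UQCR-C1 in 2, and the E7 call for SdhA in 1. Relative to E1, the median of the 6 genes' levels from E2 to E8 was 94.4, 422, 899.5, 1075, 999.9, 334 and 447%. Of the 10 muscle genes 0 were called higher and 7 lower at E3 (13.7% and 23% of all genes), and at E7 3 were lower and 0 higher. The muscle calls at E3 did not go with the stage medians. Medians of single muscle genes ran from 10.8 to 263 cpm at E2 and from 14.6 to 498 cpm at E3. The E2 group holds the 2 embryos most alike E5, named above for their high muscle levels. At E7 3 of 4 maternal markers were called higher and 0 lower (15.1% of all genes higher): bcd, pgc and osk, by 3.06, 3.17 and 1.85 on the log2 scale. Their summed level with the fourth, gcl, was 18 to 130.1 cpm at E6 (median 51.5) and 5.08 to 284 cpm at E7 (median 43.6). The E7 calls of ND-75, SdhA, SdhB, UQCR-C1 and UQCR-C2 were kept without the 34 embryos, with changes from -2.11 to -0.92, and the part of maternal RNA was not tested.

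**Figure D3:**
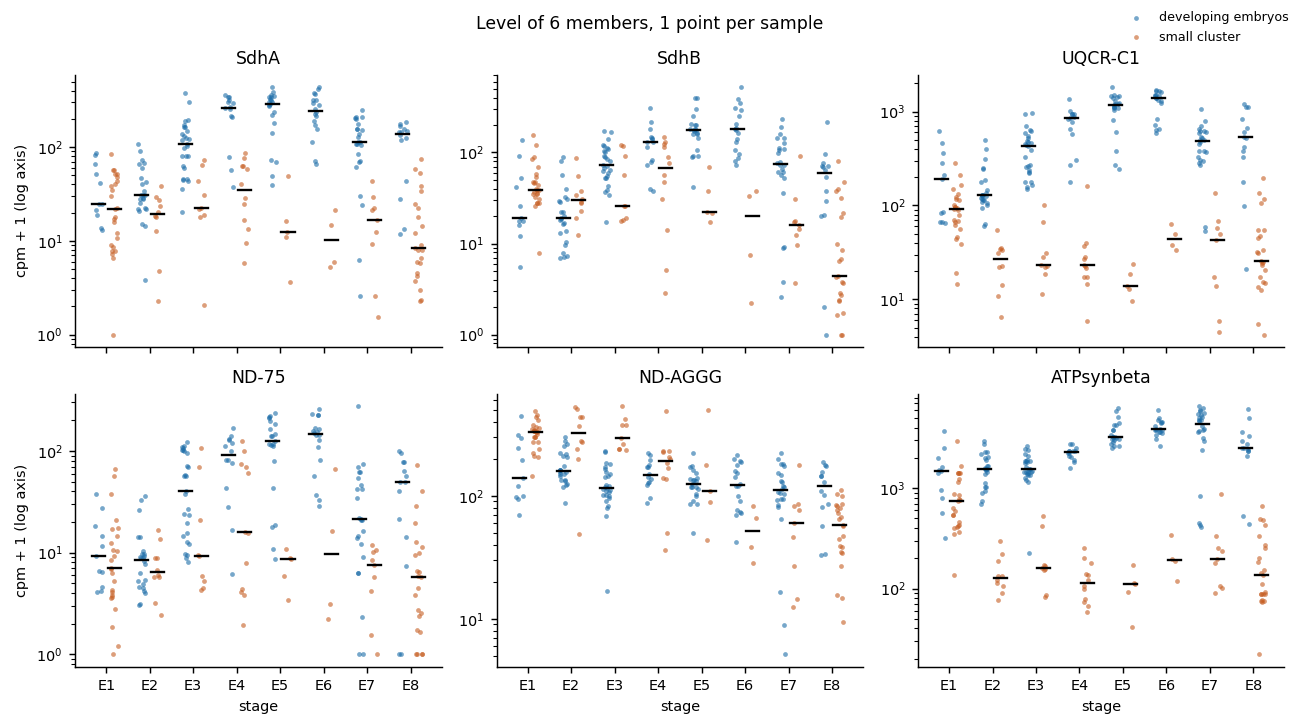
Level (cpm + 1, log axis) of SdhA, SdhB, UQCR-C1, ND-75, ND-AGGG and ATPsynbeta by stage, 1 point per sample, developing embryos in blue and the small cluster in orange, with a black bar at each median. In developing embryos the median of ND-75 went from 7.48 cpm at E2 to 39.6 at E3 and from 147 at E6 to 20.2 at E7, while that of ND-AGGG lay between 110 and 158 cpm; in the cluster that of ATPsynbeta went from 744 cpm at E1 to 126 at E2.

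The opposite side of the E2 to E3 step was held by 39 genes. All but 1 of the 9 tested genes of complex IV were lower at E3, as were 20 of 32 of complex I and 7 of 12 of complex V. The largest decreases were those of ATPsyndelta (-1.37 ± 0.19), ATPsynG (-1.35 ± 0.17), which had a median of 1809 cpm at E2 and 925 at E3, and ATPsynCF6 (-1.32 ± 0.18), a coupling subunit of the stalk. The median change of all genes was -0.21 on the log2 scale and that of the members -0.71, with a difference between -0.622 and -0.211 over the settings. The count of members lower was 22 with DESeq2 size factors, 15 with limma-voom and 11 with library size only. Within the 4 libraries, 34 to 46 of the 62 members had a lower mean log2 level at E3. Of the 10 muscle genes 7 were called lower as well (23% of all genes), such as wupA (-2.42) and Mlc1 (-2.34). Their summed level was 394 to 37001 cpm at E2 (median 802), highest in replicates 24 and 25, and 645 to 5880 cpm at E3 (median 1650). Without the 34 embryos, which include these replicates, 32 members were lower and 6 higher.

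In the small cluster the members were lost over time. At E8, 54 of 62 were lower than at E1 and 2 higher, where 28.5% of all genes were lower and 17.8% higher (46.3% called). The median change was -2.07 on the log2 scale, against -0.23 over all genes, and the difference of these medians lay between -2.426 and -1.731 over the settings. All 9 tested genes of complex IV, 27 of 32 of complex I, 3 of 4 of complex II, 4 of 5 of complex III and 11 of 12 of complex V were lower. In the 3 libraries with at least 2 samples of each stage, 58 to 60 of the 62 members had a lower mean log2 level.

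The deepest decreases in the cluster fell on accessory subunits of complex I and on UQCR-11. ND-B17.2, the counterpart of NDUFA12 of mammals, had 111 to 846 cpm at E1 (median 333) and 11.6 to 116 cpm at E8 (median 35). UQCR-11 had 863 to 3742 cpm at E1 (median 1990) and 104.5 to 823 cpm at E8 (median 252). UQCR-11 did not overlap between the stages and ND-B17.2 overlapped only where the highest E8 samples reached the lowest of E1. The changes were -3.16 ± 0.24 and -3.05 ± 0.25 (edgeR adjusted p = 8.82e-21 and 1.94e-18).

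ND-42 (NDUFA10 in mammals), an accessory subunit of complex I, was 1 of the 2 members higher at E8 in the cluster. It had 59.1 to 565 cpm at E1 (median 280) and 159 to 790 cpm at E8 (median 383). The stages overlapped widely, and the change was 0.60 ± 0.20 (edgeR adjusted p = 0.0105). The call was lost at a 2-fold limit, with library size only, with DESeq2 and its size factors, in a fit without the library, without the mitochondrially encoded genes, and without library E1_1, E2 or E3. Those not called were ND-75, ND-39, ND-18, SdhA, UQCR-C2 and ATPsynepsilonL, with changes from -0.60 to 0.60.

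Within the cluster, calls between successive stages fell mostly on E2 and on E6. Between E1 and E2, 15 members were lower and 0 higher (10.9% of all genes called, 2.02% higher and 8.91% lower): ATPsynB, ATPsynC, ATPsynD, ATPsynbeta, COX4, COX7A, ND-13B, ND-18, ND-51, ND-ACP, ND-B16.6, ND-B17.2, ND-B22, SdhC and UQCR-C1. ATPsynbeta had 134 to 2933 cpm at E1 (median 744) and 75.9 to 296 cpm at E2 (median 126), with overlap at the low end of E1, and changed by -2.51 ± 0.37 (edgeR adjusted p = 1.02e-06). ND-B17.2 had 21.8 to 113 cpm at E2 (median 61.6), which touched only the lowest E1 samples, and changed by -2.45 ± 0.32 (edgeR adjusted p = 4.37e-08). Without library E2, 4 of the members were lower, and without samples near the limits of the cluster 7 were lower and 1 higher. Within libraries, 56 of the 62 members had a lower mean log2 level at E2 in library E3 and 49 in library E2, but 31 were lower and 31 higher in library E1_2. The members' median minus that of all genes lay between -0.324 and 0.29 over the settings, so that it had no settled sign.

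Between E5 and E6 another 15 were lower and 0 higher (3.61% of all genes called, 0.916% higher and 2.7% lower): ATPsynG, ATPsynO, ATPsyndelta, COX5B, COX8, ND-13A, ND-15, ND-42, ND-AGGG, ND-B14.5A, ND-B14.5B, ND-B18, ND-MLRQ, ND-PDSW and ND-SGDH. The 2 sets of 15 shared 0 genes, and whether their courses differ was not tested. ATPsynO, a subunit of the stalk that holds the catalytic head, had 538 to 1545 cpm in the 5 samples of E5 (median 658) and 102.5 to 447 cpm in the 4 samples of E6 (median 162). These groups did not overlap, and the change was -2.35 ± 0.53 (edgeR adjusted p = 0.0061). This step rests on 9 samples: leaving out 1 of them at a time left 4 to 17 members lower, with 4 left without E6 replicate 15 and 8 without E6 replicate 3, and 0 were called without library E2, 2 without library E1_1, 3 after thinning to equal depth and 1 with limma-voom.

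The genes lower at E2 and those lower at E6 ended at like levels. As a share of the E1 median of the cluster, the early 15 had a median of 28.8% at E2, 15.1% at E5 and 18.3% at E8, and the late 15 had 113, 107.7, 68.1, 46.8 and 18.6% from E2 to E6 and 23.9% at E8, a decrease spread over several stages. Over the 60 tested members with at least 1 cpm at E1 of the cluster, the median share was 88.8% at E2, 25.2% at E6 and 19.5% at E8. Each set was chosen on its own step, so its value at E2 or at E6 follows from that choice. In developing embryos the early 15 stood at 102% of E1 at E2 and 230% at E6, and the late 15 at 96.7% and 119%. The early set holds SdhC, ATPsynbeta and UQCR-C1, and the late set holds no gene of complexes II and III. The steps between held 0 calls by edgeR, with 1 higher and 2 lower at an unadjusted p under 0.05 from E2 to E3, 2 and 13 from E3 to E4, 1 and 1 from E4 to E5 and 0 and 0 from E6 to E7, against 0.0416% (0.0312% higher), 0.0104%, 0.0104% and 0.885% of all genes called. From E7 to E8 only UQCR-C2 was lower (2.88% of all genes called, 0.562% higher and 2.32% lower). These middle steps were not run with another tool.

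**Figure D4:**
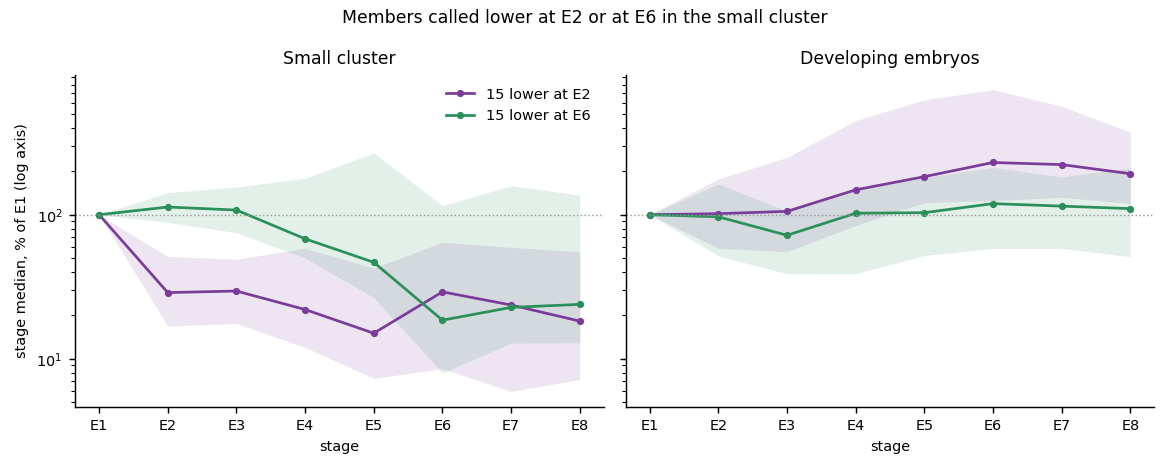
Stage medians as a percentage of E1 (log axis) for the 15 members called lower at E2 and the 15 called lower at E6 in the small cluster, shown for the cluster (left) and for developing embryos (right), with the median over genes as a line and the lowest and highest gene as a band. The line of the early set is at 28.8% by E2 and that of the late set at 18.6% by E6 in the cluster, where these genes were chosen.

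Set side by side, cluster and developing embryos had a median member ratio near 1 up to E3 and a higher one after it. The median ratio of developing over cluster level, over the members with a cluster median above 0, from E1 to E8 was 0.955, 0.979, 0.961, 1.90, 3.69, 6.78, 6.30 and 6.86. Single members lay to both sides of this median: their ratios ran from 0.289 to 26.9 at E2 and from 0.233 to 22.5 at E3, and at E2 10 of the 62 did not overlap between the groups (8.38% of all genes). Over all genes the median ratio from E1 to E8 was 1.18, 1.21, 1.59, 3.20, 4.84, 2.36, 2.49 and 2.91. The members' median thus lay below that of all genes from E1 to E5 and above it from E6 on. At E6, 48 of the 62 members did not overlap between 18 embryos and 4 cluster samples, and 21.8% of all genes did not. UQCR-C2 had the highest ratio there, 57.8, with medians of 974 and 16.9 cpm. At E7 and E8 0 members were free of overlap (2.49% and 1.05% of all genes), where the embryos named above as most alike E1 lay at cluster levels.

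Other genes of the pathway, from lists compiled with earlier results of these data known, moved in part with the members. Of 8 tested subunits with symbols of another kind, 8 were higher at E6 than at E3, such as the cytochrome c gene Cyt-c-p (2.38 ± 0.22) and blw, the alpha subunit of the ATP synthase (2.28 ± 0.29). Of 12 enzymes of the citric acid cycle and pyruvate dehydrogenase, 11 were higher and 0 lower, with Mdh2, a malate dehydrogenase, at 4.97 ± 0.40 and ScsbetaA, of succinyl-CoA synthetase, at 3.61 ± 0.34. All 4 tested carriers of the mitochondrial membranes were higher, among them the ADP/ATP translocase sesB (1.60 ± 0.23). Of 7 assembly factors 2 were higher. In this comparison 32.7% of all genes were called higher and 34.7% lower, so the share of the assembly factors was near that of all genes. All of these come from the same embryos as the members' values.

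The 13 protein genes of mitochondrial DNA had a smaller median change than the members at E6 against E3. Of the 13, edgeR called 0 in this comparison (67.3% of all genes called), with 0 higher and 0 lower at an unadjusted p under 0.05. Their median change was 0.23 on the log2 scale (other tools were not run on this list). Their summed level in developing embryos had medians of 57233 cpm at E1, 35975 at E3, 35907 at E6 and 71726 at E8, and in the cluster 50838 cpm at E1, 80269 at E6 and 58767 at E8. In the cluster at E8 against E1, 2 were higher and 4 lower, and 17.8% and 28.5% of all genes were. Of the 8 other nuclear subunits 7 were lower there. Of 5 genes for the upkeep and expression of mitochondrial DNA, 3 were lower at E6 than at E3, including TFAM (-0.74 ± 0.24), which packages this DNA. The share of all genes lower in this comparison was 34.7%. Of 6 transcription regulators, 4 were lower: Ets97D, Dref, crol and ewg, while ERR, a nuclear receptor that drives metabolic genes in the fly, was not called (0.73 ± 0.35, edgeR adjusted p = 0.0588).

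The 25 members under 1 cpm were 22 of the 24 L paralogs together with ND-B8, ND-MNLL and UQCR-14. Their mean reached at most 0.631 cpm (COX7AL) and their highest single sample 16.03 cpm, also in COX7AL, whereas no tested member without an L had a mean under 44.3 cpm. Among the paralogs near the limit, COX7AL had 16.03, UQCR-11L 10.8, ND-51L1 13.3 and SdhBL 12.4 cpm in their highest sample. COX5BL, ND-MNLL and UQCR-14 had 0 counts in all 288 samples, and 100% of their exon bases lie in exons of another gene (Trmt6, CG45089 and CG32576), so that a count of 0 says nothing about their expression. The L paralogs that were tested were COX4L and ATPsynepsilonL.

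The spread between embryos had a lower median over the members than over all genes, though not in every complex. The measure was the adjusted SD of the study's methods. It is the SD of log2 levels at a stage over the SD across all stages together that a polynomial fit predicts from the mean level. A value of 1 is thus a spread within the stage as wide as that predicted over all stages. The median over the 62 members from E1 to E8 was 0.613, 0.444, 0.527, 0.430, 0.440, 0.372, 0.809 and 0.804, and over all genes 0.738, 0.602, 0.571, 0.592, 0.707, 0.648, 0.965 and 0.935. At E6, 56 of the 62 were under the median of all genes, from 0.214 to 0.814. ND-B12, a subunit of complex I, had the lowest value there and ATPsynC the highest at E7, with 1.82.

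The values at E1, E7 and E8 were lower without the embryos that went against their label. These embryos were picked by their expression, so a narrower spread without them is in large part set by that choice. It is not read as a result about the members. Without the 34 embryos the members' median was 0.320 at E7, 0.453 at E8 and 0.379 at E1. Complex III had the widest spread at E6, with a median of 0.584 over its 5 genes, and complex I the narrowest, with 0.327 over 32. The median of complex III was above that of all genes at E1 (1.009), E3 (0.768), E4 (0.678), E5 (0.719), E7 (1.054) and E8 (1.235), and that of complex V at E1 (0.757), E3 (0.638), E7 (1.163) and E8 (1.172). Complex II was above it at E2 (0.668), E3 (0.572) and E8 (0.992). These values are a description, with no test over genes.

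**Figure D5:**
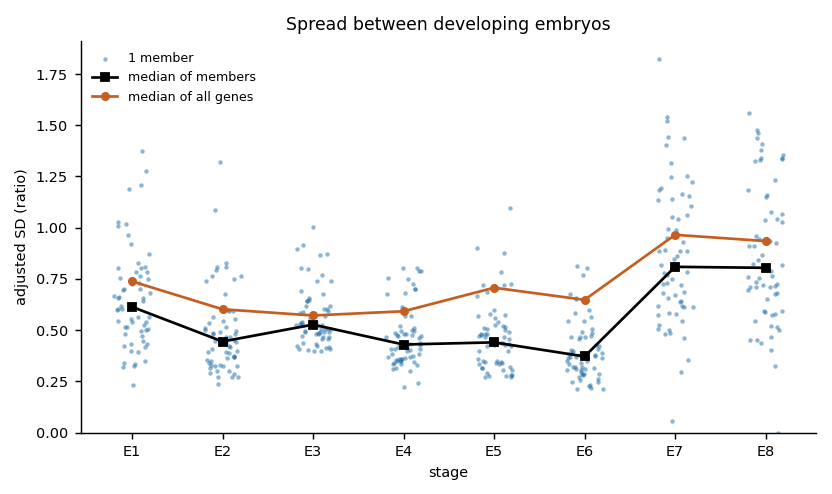
Adjusted SD (a ratio) of the 62 tested members by stage in developing embryos, 1 point per gene, with the median of the members in black and that of all 9606 genes in orange. The median of the members lies under that of all genes at all 8 stages, with 0.372 against 0.648 at E6.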

How the data were processed

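Single untreated embryos were sequenced by BRB-seq in 4 libraries. The authors trimmed the reads, mapped them with STAR to BDGP6 (Ensembl release 91), counted them per gene with HTSeq and deposited raw counts, which are not normalized and count PCR copies. Plates grouped samples by RNA concentration, so library and RNA amount cannot be told apart. Stages came from the labels; 1 sample of conflicting age was kept at E7.

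Gene types came from the annotation of Ensembl release 115, where 17560 of 17698 genes were found (the other 138 held 1.43% of the counts). Samples needed 300000 counts and 4500 detected genes, and genes a mean above 1 cpm. The small cluster was delimited at -0.025 on the first and 0 on the second axis of the scaling, after limma 3.58.1 (voom, quantiles) and ComBat (sva 3.50.0). edgeR 4.0.16 (R 4.3.3) fitted the 153 developing embryos and the 97 cluster samples separately, with stage and library, over 9606 genes. DESeq2 1.42.0 and limma-voom were alternatives. Several cages supplied the embryos, but no label ties a sample to a cage, so p-values measure the spread between these embryos. The adjusted SD used a polynomial of degree 5. The calculations were tested on simulated data with known changes.

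Members, lists, marker genes and comparisons were chosen with earlier results of these data known. Genes were named by rule: in each complex the 2 with the highest mean and those with the highest and lowest change from E1 to E8, all of complex II, up to 5 called against the majority, L paralogs with their partners, and members under the filter. ND-39, ND-B17.2, ATPsynO and ND-B12 are described outside this rule, with their values known. Alternatives changed the scaling, test, filter, covariate, fold limit, depth, samples and libraries. Promoter motifs, proteins and sequences were not analysed here. The values of 1 tested member are not reported here.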

Additional observations from a re-analysis of the deposited data

Results flagged for a closer look

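In the small cluster at E6, 1 of the 4 samples stood apart from the others in the summed level of the members. E6 replicate 15 of library E2 had 12548 cpm over all members, where the next sample had 9686.3 cpm, and 2788.4 cpm over complex IV. Its gap to the next sample was 0.841 and 0.844 of the whole range, above Dixon's limit of 0.829 for 4 samples. In all 30 groups of 4 to 10 samples were tested, and chance marks about 1 in 20 of such groups. The comparison of E6 with E5 in the cluster called 15 members lower with this sample and 4 without it.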

How the results depend on the processing

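Recomputed under the alternatives, 179 counts of called members stayed within 1.5 times the reported count and 61 did not. No paired analysis was possible because each sample is a different single embryo. The titles give a library and a well, and the replicate numbers used here follow the order in which the samples of a stage are listed. In the steps between successive stages of developing embryos, DESeq2 size factors gave 3 calls (E2 against E1), 29 (E3 against E2), 29 (E4 against E3) and 47 (E5 against E4), and DESeq2 gave 29, 28 and 47 from E3 on. Library size only gave 1, 19, 13 and 2, and limma-voom gave 22, 16 and 4 from E3 on. A 2-fold limit gave 0, 17, 0 and 0, and 4 for E7 against E6. Thinned counts gave 3 (E2 against E1) and 17 (E4 against E3), and a fit without the library 4 (E4 against E3). Without a filter on low counts, 84 members were tested and 2, 13 and 2 were called at E6, E7 and E8 against the stage before. With the small cluster's samples included there were 26 (E3 against E2), 1, 18 and 43 (E8 against E7). Without the embryos more alike another stage there were 36 (E2 against E1), 10 (E5 against E4), 1 (E6 against E5) and 22 (E8 against E7).

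The following alternatives were chosen after the data were seen. Without library E1_1 there were 1 (E2 against E1), 0 (E4 against E3) and 12 (E5 against E4), without E1_2 there were 1 and 12 (E2 against E1 and E5 against E4), without E2 there was 1 (E2 against E1), and without E3 there were 11, 16 and 2 (E2 against E1, E5 against E4 and E6 against E5).

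For E6 against E1, 45 members were called with DESeq2 and with its size factors, 17 at a 2-fold limit and 44 without the atypical embryos. For E8 against E1 there were 16 at a 2-fold limit, 46 with the cluster included, 46 without the atypical embryos and 7 without library E2. E6 against E3 called 35 with the cluster included. In the cluster, E2 against E1 called 4 without library E2 and 8 without samples near its limits. E6 against E5 called 3 with DESeq2 size factors, 8 with library size only, 1 with limma-voom, 3 thinned, 2 without library E1_1, 0 without library E2, and 4 to 17 with 1 sample left out. For all these counts the cause was not tested, and the share of all genes called under each alternative is not given.

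Of the changes of named genes, 2521 kept their call under an alternative, 506 lost it and 15 changed sign. With DESeq2 and its size factors, ATPsynCF6 came to 0.21 and 0.21 (E6 against E1) and 0.0247 and 0.0244 (E8 against E1), and UQCR-11 to 0.0412 and 0.0414 (E6 against E1). With the cluster included, ATPsynCF6 came to -0.0177, ATPsyndelta to -0.15 and ND-15 to -0.23 (E6 against E3), ATPsyndelta to -0.11 (E5 against E4), and SdhB to -0.33, SdhC to -0.0073 and SdhD to -0.74 (E8 against E1). ND-42 came to -0.0547 without the atypical embryos (E6 against E1), and COX4L to 0.39 with limma-voom (E8 against E1, cluster). With TMM-scaled totals the median summed level was 20663, 24785 and 40464 cpm at E3, E4 and E5 of developing embryos and 49244, 50955 and 36105 cpm at E1, E2 and E5 of the cluster. The members' median adjusted SD was 0.379 at E1 and 0.320 at E7 without the atypical embryos. Depth limits the low paralogs and the 4 cluster samples of E6, whose median total was 651240 counts. Counts of 0 in fully overlapping genes were not read as absence.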

Other observations

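Other genes of mitochondrial metabolism also changed from E6 to E7, where 6 of 12 enzymes of the citric acid cycle and pyruvate dehydrogenase were lower and 0 higher (6.18% of all genes lower). From E2 to E3, 1 of the 12 was higher and 0 lower (13.7% of all genes higher, edgeR). In the small cluster 4 of 7 assembly factors were lower at E2 than at E1 and 0 higher (8.91% of all genes lower). At E8, 6 of 7 were lower than at E1 (28.5% of all genes lower). These values come from the same embryos as those of the members.

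The signed change went with exon length in several comparisons. Over the 62 tested members, Spearman's rho of exon length with the log2 change was 0.481 for E6 against E1, 0.454 for E6 against E3, 0.476 for E3 against E2 and -0.543 for E7 against E6. In the cluster it was -0.027 for E2 against E1 and 0.409 for E8 against E1. The 6 genes higher at E3 had a median of 1659 exon bases and the other tested members 830. The points are genes of the same embryos and not independent replicates, and the part of length in the changes was not tested.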
